A study of Mus musculus with 9 samples.

Results

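The measurements described here are the mRNA levels of 34 mouse genes that encode the enzymes of serine synthesis, folate-bound one-carbon metabolism, the methionine cycle, and purine and pyrimidine nucleotide synthesis and salvage. The genes were chosen by symbol from a count table of 55453 lines, all 34 were found there, and all 34 were among the 13568 genes with enough counts to be tested. The cells were ST2, a wild-type stromal cell line established from long-term mouse bone marrow culture, which the study used to ask how stromal cells respond to taking up dying neutrophils (efferocytosis). There were 3 groups of 3 libraries. The unfed 24 h libraries came from ST2 cells that received no neutrophils. The fed 3 h and fed 24 h libraries came from ST2 cells given human blood neutrophils, frozen beforehand (18 h or longer) and dye-labelled, at 10 neutrophils per ST2 cell for 3 h or 24 h. Fed cells were then sorted for a dye signal of at least 1 whole neutrophil. All groups shared the line, the medium and the start of the experiment near confluence, and nothing in the labels says whether the 3 libraries of a group came from separate cultures, so p-values measure only the spread between these libraries. No unfed 3 h group was analysed here: at 3 h, feeding and time cannot be told apart, and at 24 h feeding cannot be told apart from selection for uptake.

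Serine is made from a glycolytic intermediate by PHGDH, PSAT1 and PSPH in turn. Serine hydroxymethyltransferases move a carbon from serine to tetrahydrofolate, and the folate enzymes of mitochondria and cytosol carry that carbon to purine rings, to thymidylate and, through methionine, to methyl donors. Phosphoribosyl pyrophosphate (PRPP) is the sugar on which the purine ring is built, and it is attached to the pyrimidine ring once that is made. Salvaged bases are rebuilt with it too. Dividing cells draw on all of these routes for RNA, DNA and membrane synthesis.

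Upstream sequence is shown first for 4 genes: Psat1, which was lower at 24 h without a call at 3 h, and Shmt2, Mthfd2 and Atic, which were higher at 3 h and lower at 24 h. The Atic window was picked for its E-box next to the start. Each is the 250 bases before a transcript start in RefSeq's promoter table (GRCm38.p6), written 5′ to 3′ on the gene's strand. Capitals mark matches to CACGTG (the E-box bound by MYC and MAX) or to CCAAT (the box bound by NF-Y), on either strand. The Psat1 window shown lies at chr19:15925060-15925309 (minus strand) and that of Shmt2 at chr10:127522445-127522694 (minus). That of Mthfd2 lies at chr6:83317605-83317854 (minus) and that of Atic at chr1:71556906-71557155 (plus). Another Psat1 window, at chr19:15924623-15924872 (minus), held no match to either motif and is not shown. In the GENCODE M21 annotation the Psat1 and Shmt2 windows shown held 0 exon bases, the Mthfd2 window 2 and the Atic window 6. The Psat1 and Mthfd2 windows shown lie inside the wider span that GENCODE gives these genes.
Psat1: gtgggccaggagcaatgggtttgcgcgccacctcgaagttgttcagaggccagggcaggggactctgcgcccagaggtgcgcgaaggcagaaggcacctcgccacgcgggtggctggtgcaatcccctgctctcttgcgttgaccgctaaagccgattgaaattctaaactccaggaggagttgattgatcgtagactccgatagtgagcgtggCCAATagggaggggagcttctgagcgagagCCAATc
Shmt2: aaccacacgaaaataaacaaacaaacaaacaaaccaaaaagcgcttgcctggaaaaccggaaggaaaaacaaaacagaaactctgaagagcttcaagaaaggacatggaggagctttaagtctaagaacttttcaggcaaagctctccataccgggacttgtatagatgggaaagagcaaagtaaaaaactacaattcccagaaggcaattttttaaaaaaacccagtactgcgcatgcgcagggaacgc
Mthfd2: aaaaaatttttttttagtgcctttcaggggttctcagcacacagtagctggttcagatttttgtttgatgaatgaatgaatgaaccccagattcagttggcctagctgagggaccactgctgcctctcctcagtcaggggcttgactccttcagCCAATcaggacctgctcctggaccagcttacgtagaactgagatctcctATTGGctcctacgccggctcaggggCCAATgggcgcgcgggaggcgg
Atic: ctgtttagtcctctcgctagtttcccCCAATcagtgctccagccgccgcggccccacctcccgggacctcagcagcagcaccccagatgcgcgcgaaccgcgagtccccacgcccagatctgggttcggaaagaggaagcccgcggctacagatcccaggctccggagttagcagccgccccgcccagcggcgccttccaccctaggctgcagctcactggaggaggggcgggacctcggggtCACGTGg
Promoter windows of 250 bases before and 50 after the start were found for 31 of the 34 genes, 36 windows in all. The E-box was found in windows of 4 of the 31 genes (12.9%: Atic, Impdh2, Nme1 and Paics), and in 7.15% of all 32851 mouse promoter windows. CCAAT was found in 16 of 31 genes (51.6%), against 37.4% of all windows. TGATGNAA, letters of the amino acid response element bound by ATF4, was found in 1 of 31 genes (Prps1, 3.23%), against 3.97% of all windows. A gene was counted if any of its windows held a match (36 windows for 31 genes), whereas the share over all mouse windows is per window. The shares are therefore not in the same unit, and genes with more windows had more places for a match. In Atic the E-box began 7 bases before the RefSeq start, and the GENCODE start of Atic (71557150) falls within that E-box. In Mthfd2 3 CCAAT matches began 96, 47 and 22 bases before the RefSeq start. None of the 3 motifs was found in the Shmt2 window. The E-box and CCAAT cannot overlap each other, the E-box can overlap TGATGNAA but no gene here held both, and these matches describe letters only.

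The libraries held 44442664 to 55971275 counts in genes and Nme2, Shmt1 and Mthfd2l were the least counted of the 34. Stromal markers were uneven in level: 13 of 14 were tested (Thy1 was not) and their summed level was 31760 to 34240 CPM (counts-per-million of the scaled library total) in unfed, 27620 to 28430 in fed 3 h and 36230 to 37620 in fed 24 h libraries. In unfed cells the highest tested means were those of Col1a1, Col1a2 and Cxcl12 (12568, 10943 and 5712 CPM). The lowest were those of Lepr, Nt5e and Eng (0.906, 1.04 and 2.43 CPM). Of the 13, 1 rose and 8 fell at 3 h (7.69% and 61.5%, against 25.1% and 25.5% of all tested genes). At 24 h 6 rose and 0 fell (46.2% rose, against 14.9%). Of 12 mouse neutrophil markers 1 was tested (Camp), and S100a9, Ngp and Retnlg were at 0. The sum was 2.32 to 2.95 CPM in unfed, 0.755 to 1.42 CPM in fed 3 h and 3.43 to 4.31 CPM in fed 24 h libraries. Camp was lower at 3 h (log2 −1.47, edgeR adjusted p = 5.806e-05) and not called at 24 h against unfed. The neutrophils given were human, so these mouse genes cannot show whether neutrophil RNA was carried into the fed libraries. Of 8 macrophage markers 4 were tested, and Adgre1 and Fcgr1 were at 0. The sum was 23.3 to 25.4 CPM in unfed, 27.8 to 28.8 CPM in fed 3 h and 24.7 to 28.1 CPM in fed 24 h libraries. Of the 4, Csf1r, Cd68 and Cd14 rose and Lyz2 fell at 3 h (75% and 25%, against 25.1% and 25.5% of all tested genes). At 24 h Lyz2 alone rose and 0 fell (25% rose, against 14.9%). The 4 endothelial markers were untested and Kdr was at 0. Counts of mitochondrially encoded genes made up 1.12% to 1.61% of counts in unfed and fed 3 h libraries and 1.78% to 2.22% in fed 24 h libraries. Counts of 2 genes linked to ribosomal RNA made up 0.201% to 0.350% in fed 24 h libraries, 0.249% in fed 3 h replicate 3 and 0.0904% to 0.115% in the other 5. The part of these differences in the results below was not tested.

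Fed for 24 h, the ST2 cells had lower mRNA levels of most of these enzymes than unfed cells. In bulk libraries, fewer cells that express a gene and less of its mRNA per cell cannot be told apart. In edgeR's quasi-likelihood test with Benjamini-Hochberg adjustment over all 13568 genes, 24 of the 34 genes fell (70.6%, where 15.9% of all tested genes fell) and 0 rose (14.9% of all tested genes rose). At an unadjusted p under 0.05, 0 rose either, and 0 rose by the Wald test of DESeq2. The median log2 difference was −0.26, against −0.0013 over all tested genes, with a range from −0.58 to −0.0029. Differences were small: 2 of the 34, Pfas and Psat1, fell by 0.5 or more on the log2 scale (1.6% of all tested genes did) and 0 rose by as much (3.09% did). The libraries of the 2 groups did not overlap for 28 of the 34 genes, all lower in fed 24 h libraries (22% of all tested genes lay lower without overlap and 21.3% higher). All 34 differences were below 0, but that of Mthfd2l was above 0 without unfed replicate 3 and that of Dhodh under 9 of 17 other settings.

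At 3 h the picture was the opposite for many of the same genes. Relative to unfed 24 h cells, 14 of 34 rose (41.2%, where 25.1% of all tested genes rose) and 2 fell (5.88%, where 25.5% fell), with a median log2 difference of 0.13 against −0.0085 over all tested genes. Under scaling by library totals the medians at 3 h were 0.08 for the 34 genes and −0.05 for all tested genes. The 16 called genes compare with 50.6% of all tested genes called in either direction. Libraries did not overlap for 20 genes that lay higher and 2 that lay lower at 3 h (29.1% of all tested genes each way), and 2 genes, Pfas and Mat2a, rose by 0.5 or more on the log2 scale (6.86% did, and 8.34% fell by as much). Between the fed groups, 27 of 34 were lower at 24 h than at 3 h (79.4%, where 30.2% of all tested genes were lower) and 1 was higher (2.94%, where 30.8% were higher), with a median of −0.40 against −0.0017. The largest differences in the set lay here: 12 genes were lower by 0.5 or more on the log2 scale (10.5% of all tested genes were) and 0 higher by as much (13.7% were). Without overlap, 30 genes lay lower and 2 higher at 24 h than at 3 h (32.6% and 33.3% of all tested genes). For 27 of the 34 genes the fed 3 h mean was the highest and the fed 24 h mean the lowest of the 3. These 3 comparisons share libraries with each other, so their counts are not independent of one another.

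**Figure D1:**
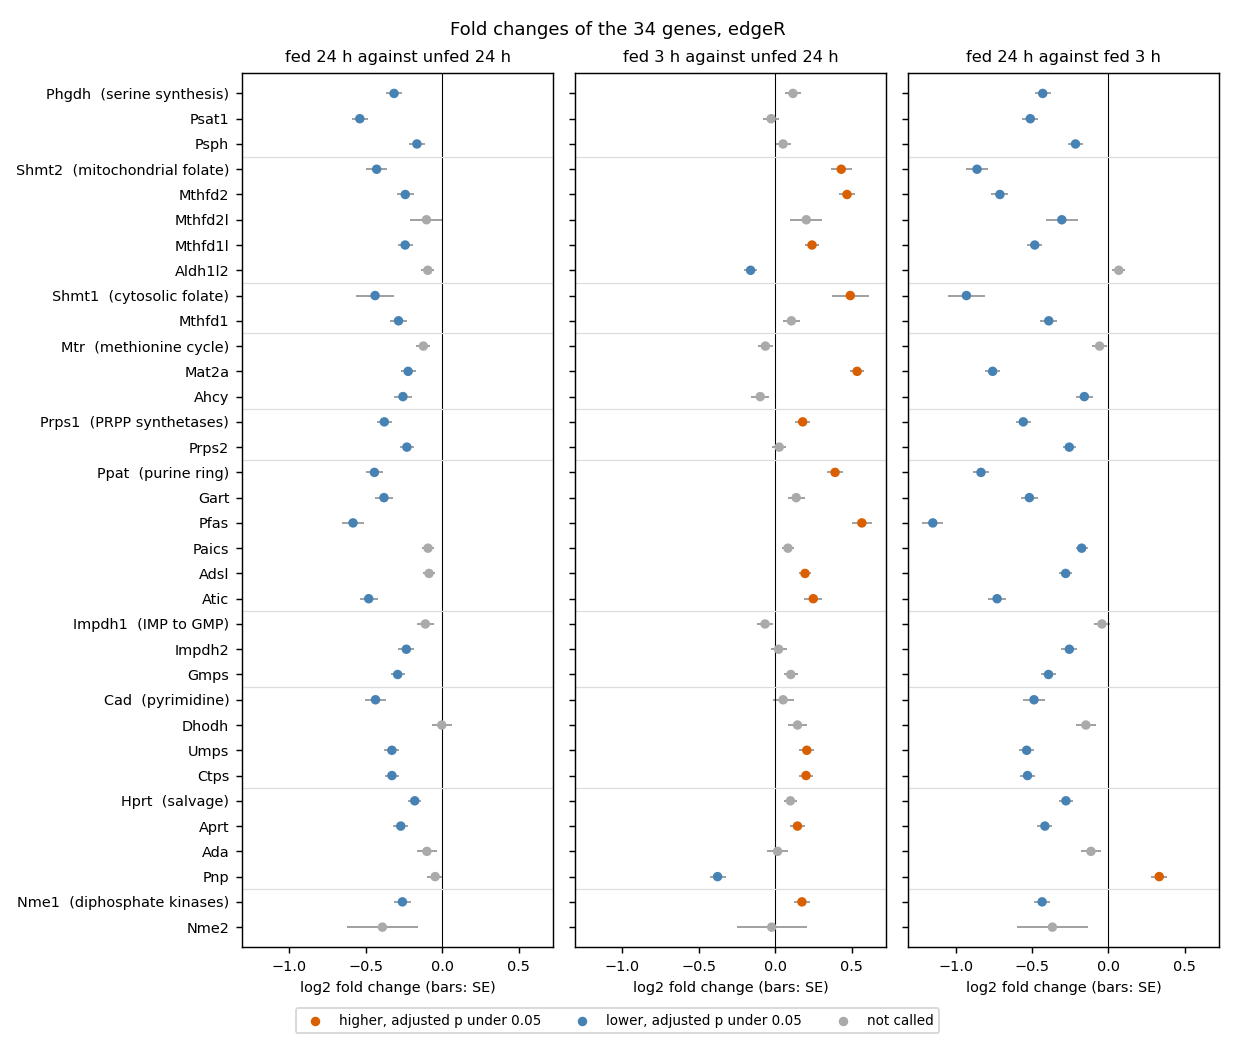
Log2 fold change of each of the 34 genes in the 3 comparisons (x axis, log2 scale, bars are standard errors from edgeR), ordered by role; orange marks genes higher and blue genes lower at an adjusted p under 0.05. All 34 points lie below 0 in the left panel, 27 lie above 0 in the middle panel and 32 lie below 0 in the right panel, and of the grey points 2, 6 and 1 change sign under another setting.

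Taken over the 3 comparisons, 13 genes rose at 3 h, fell at 24 h and were lower at 24 h than at 3 h: Shmt2, Mthfd2, Mthfd1l, Shmt1, Mat2a, Prps1, Ppat, Pfas, Atic, Umps, Ctps, Aprt and Nme1. That pattern was seen in 888 of all tested genes (6.54%). Another 11 were lower in fed 24 h cells than in both other groups without a call at 3 h: Phgdh, Psat1, Psph, Mthfd1, Ahcy, Prps2, Gart, Impdh2, Gmps, Cad and Hprt. Adsl rose at 3 h and was lower at 24 h than at 3 h, and Mthfd2l and Paics were called in that last comparison alone. Pnp and Aldh1l2 fell at 3 h, and Ahcy was lower at 3 h as well under scaling by library totals or with its near-identical copies added. Mtr, Impdh1, Dhodh, Ada and Nme2 passed the test in 0 of the 3 comparisons. The summed level of the 34 genes was 3858, 4263 and 4142 CPM in the unfed libraries, 4528, 4443 and 4592 CPM in the fed 3 h libraries and 3267, 3460 and 3221 CPM in the fed 24 h libraries, with no overlap between groups. Unfed replicate 1 was the lowest of its group for 25 of the 34 genes, and fed 24 h replicate 3 for 22.

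The 3 enzymes of serine synthesis all fell at 24 h, where 15.9% of all tested genes fell. None was called at 3 h, where 50.6% of all tested genes were called in either direction. Psat1, phosphoserine aminotransferase (chromosome 19, 15904678 to 15947337, GRCm38), was the gene with the highest level per exon length in unfed cells. Its level was 516, 571 and 557 CPM in unfed, 533, 525 and 555 CPM in fed 3 h and 372, 401 and 358 CPM in fed 24 h libraries. The unfed and fed 3 h values overlapped, and every fed 24 h value lay below every other. Psat1 fell by 31.2% at 24 h (log2 −0.54, SE 0.0516, edgeR adjusted p = 6.366e-06) and differed by −0.03 on the log2 scale at 3 h (adjusted p = 0.6817). Phgdh, the first and committed step, stood at 93.3 to 106 CPM in unfed, 107 to 111 CPM in fed 3 h and 76.0 to 85.4 CPM in fed 24 h libraries, and fell by 19.6% at 24 h (edgeR adjusted p = 0.0005346). Counts of 8 processed pseudogenes of Phgdh came to 7.11% of the sum with Phgdh, and adding them changed no call. Psph, the phosphatase of the last step, fell by 10.8% at 24 h (edgeR adjusted p = 0.02194), a call that ended when the third unfed library, or the first or the second of the fed 24 h libraries, was left out (log2 −0.18 to −0.14 over all settings). Exons of Psph share 10.4% of their bases with the opposite-strand gene Cct6a, and whether the counting used strand is not given in the sources used here.

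Of the 5 mitochondrial folate enzymes, Shmt2, Mthfd2 and Mthfd1l rose at 3 h and fell at 24 h, whereas Mthfd2l and Aldh1l2 did not. Shmt2 (chromosome 10, 127517123 to 127522444), the mitochondrial serine hydroxymethyltransferase that feeds the route, stood at 319, 404 and 374 CPM in unfed, 500.4, 475 and 504 CPM in fed 3 h and 266, 292 and 257 CPM in fed 24 h libraries. No value of one group reached that of another. It rose by 34.8% at 3 h (log2 0.43, SE 0.0697, edgeR adjusted p = 9.901e-05), fell by 25.7% at 24 h (log2 −0.43, SE 0.0699, adjusted p = 0.0004028) and was 0.551 times its 3 h level at 24 h. Mthfd2 (chromosome 6, 83305691 to 83325908), the mitochondrial methylenetetrahydrofolate dehydrogenase of proliferating cells, stood at 88.3, 101 and 98.3 CPM in unfed, 141, 125 and 132 CPM in fed 3 h and 78.3, 82.4 and 82.7 CPM in fed 24 h libraries. Again the groups did not overlap. Mthfd2 rose by 38.4% at 3 h (edgeR adjusted p = 4.857e-06) and fell by 15.4% at 24 h (adjusted p = 0.004456). Mthfd1l, which releases formate in mitochondria, stood at 211 to 233 CPM in unfed, 261 to 266 CPM in fed 3 h and 179.7 to 200.5 CPM in fed 24 h libraries.

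Mthfd2l, the less abundant isozyme of Mthfd2, stood at 5.89, 6.68 and 7.87 CPM in unfed, 8.09, 7.24 and 8.15 CPM in fed 3 h and 6.08, 6.79 and 6.14 CPM in fed 24 h libraries. The unfed libraries spanned the fed 24 h values, and 2 of the 3 fed 3 h values lay above every unfed value. Its one call, lower at 24 h than at 3 h (log2 −0.31, SE 0.104, edgeR adjusted p = 0.01856), ended when the first or the third library of either fed group was left out. Aldh1l2, which oxidises formyl-tetrahydrofolate to carbon dioxide in mitochondria, went the other way from its neighbours in the route. It stood at 286, 302 and 301 CPM in unfed, 269, 268 and 258 CPM in fed 3 h and 281, 269 and 281 CPM in fed 24 h libraries. Aldh1l2 fell by 10.6% at 3 h (edgeR adjusted p = 0.004204) and was 0.936 times the unfed level at 24 h (adjusted p = 0.09774). Its exons share 14.1% of their bases with the opposite-strand gene D10Wsu102e. Values of Aldh1l2 and Pnp were picked for printing after they had been seen.

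**Figure D2:**
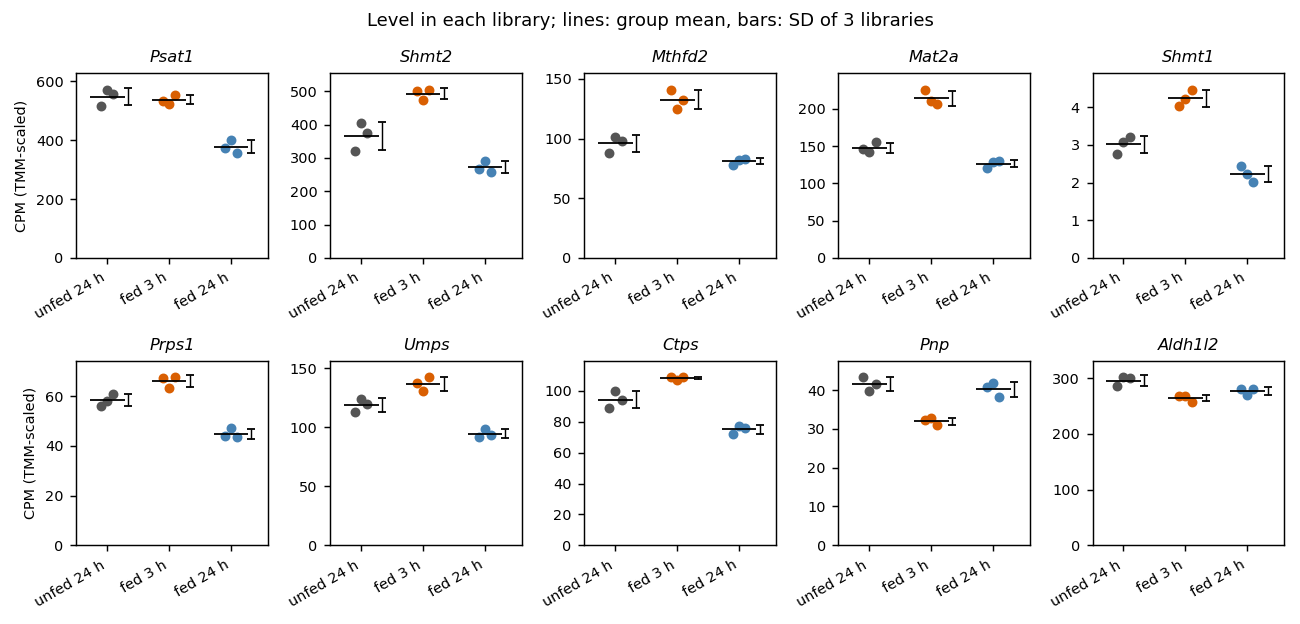
Level of 10 genes in each of the 9 libraries (y axis, CPM on the scaled library total, from 0), with the mean (line) and SD (bar) of the 3 libraries of a group. The fed 24 h points lie below all unfed points in the panels of Psat1, Shmt2, Mthfd2, Mat2a, Shmt1, Prps1, Umps, Ctps and Aldh1l2, and the fed 3 h points of Pnp and Aldh1l2 lie below their unfed points.

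In the cytosol, Shmt1 and Mthfd1 also fell at 24 h. Shmt1 (chromosome 11, 60788104 to 60811718), the cytosolic serine hydroxymethyltransferase, stood at 2.76, 3.08 and 3.20 CPM in unfed, 4.02, 4.22 and 4.46 CPM in fed 3 h and 2.43, 2.21 and 2.03 CPM in fed 24 h libraries. The 3 groups did not overlap. It rose by 40.4% at 3 h (log2 0.49, SE 0.120, edgeR adjusted p = 0.003013) and fell by 26.2% at 24 h (log2 −0.44, SE 0.126, adjusted p = 0.01542). That fall lost its call when the third library of the unfed or of the fed 24 h group was left out (largest edgeR adjusted p = 0.0668). Exons of Shmt1 share 4.74% of their bases with the opposite-strand gene Smcr8, which held 25517 counts over the 9 libraries. Mthfd1, the trifunctional cytosolic enzyme, stood at 101 to 118 CPM in unfed, 118 to 121 CPM in fed 3 h and 88.9 to 94.7 CPM in fed 24 h libraries (fell by 18.0% at 24 h, edgeR adjusted p = 0.001205).

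The methionine cycle was split. Mat2a (chromosome 6, 72432799 to 72439558), the catalytic subunit that makes S-adenosylmethionine, stood at 146, 143 and 155 CPM in unfed, 225, 210.2 and 207 CPM in fed 3 h and 121, 129 and 129.5 CPM in fed 24 h libraries. The fed 3 h libraries all lay above 200 CPM, and no other library reached that level. It rose by 44.9% at 3 h (log2 0.53, SE 0.0480, edgeR adjusted p = 2.695e-07) and fell by 14.3% at 24 h (adjusted p = 0.002874). Mtr, methionine synthase, stood at 48.3 to 55.8 CPM in all 9 libraries and passed the test in no comparison. Ahcy, which clears S-adenosylhomocysteine, fell by 16.3% at 24 h (edgeR adjusted p = 0.003664). A near-identical gene, Gm4737 (99.7% identity over 2083 aligned bases), held 11575 counts against 18522 for Ahcy, so the 2 could have split each other's reads. With the copies added, Ahcy was lower at 24 h (log2 −0.26, adjusted p = 0.001655) and also at 3 h (log2 −0.14, adjusted p = 0.03704). The lower Ahcy level at 24 h than at 3 h (log2 −0.16, edgeR adjusted p = 0.02646) lost its call under library totals or upper quartile scaling and when the third library of either fed group, or the first fed 24 h library, was left out.

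Both PRPP synthetases fell at 24 h, and Prps1 alone of the pair was called at 3 h. Prps1 (chromosome X, 140456613 to 140476140) stood at 56.2, 58.1 and 61.0 CPM in unfed, 67.4, 63.3 and 67.7 CPM in fed 3 h and 44.1, 47.2 and 43.5 CPM in fed 24 h libraries. Prps2, also on chromosome X, stood at 60.1, 63.9 and 63.6 CPM in unfed, 62.3, 63.3 and 65.2 CPM in fed 3 h and 52.7, 54.8 and 52.3 CPM in fed 24 h libraries. Prps1 values did not overlap between groups, whereas Prps2 overlapped between unfed and fed 3 h. Prps1 fell by 23.1% at 24 h (log2 −0.38, SE 0.0502, edgeR adjusted p = 9.058e-05) and Prps2 by 14.8% (log2 −0.23, SE 0.0444, adjusted p = 0.00132). Within each library, the ratio of Prps1 to Prps2 counts was 0.934, 0.910 and 0.959 in unfed, 1.08, 0.999 and 1.04 in fed 3 h and 0.836, 0.862 and 0.832 in fed 24 h libraries. The 3 groups of ratios did not overlap. In each comparison the exact two-sided permutation test gave p = 0.1, the smallest that 3 against 3 allows, and 0.214 after adjustment over 15 tests of ratios. No p under 0.05 was possible, so the test cannot decide whether the pair changed unequally.

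Of the 6 enzymes that build the purine ring from PRPP to IMP, 4 fell at 24 h (Ppat, Gart, Pfas and Atic), 4 rose at 3 h (Ppat, Pfas, Adsl and Atic) and all 6 were lower at 24 h than at 3 h. Of all tested genes, 15.9% fell at 24 h, 25.1% rose at 3 h and 30.2% were lower at 24 h than at 3 h. The values of 24 h and unfed libraries did not overlap for any of the 6, nor did those of 3 h and unfed libraries. Of all tested genes, 22% lay lower at 24 h and 29.1% higher at 3 h than unfed without overlap. Ppat (chromosome 5, 76913249 to 76951578), the amidophosphoribosyltransferase that commits PRPP to purines, stood at 31.0, 34.3 and 33.8 CPM in unfed, 44.8, 41.8 and 43.3 CPM in fed 3 h and 23.0, 25.1 and 24.8 CPM in fed 24 h libraries. It was higher at 3 h by 31.1% (edgeR adjusted p = 2.513e-05) and fell by 26.5% at 24 h (adjusted p = 6.25e-05). Pfas (chromosome 11, 68985697 to 69008460), formylglycinamidine synthase, showed the widest swing of the 34 genes. It stood at 48.0, 58.4 and 57.4 CPM in unfed, 78.6, 82.9 and 80.9 CPM in fed 3 h and 34.6, 39.3 and 35.3 CPM in fed 24 h libraries. The fed 3 h libraries were high, the fed 24 h libraries low and the unfed libraries between them, without overlap. Pfas rose by 48.0% at 3 h (log2 0.57, SE 0.0673, edgeR adjusted p = 5.032e-06), fell by 33.3% at 24 h (log2 −0.58, SE 0.0689, adjusted p = 3.818e-05) and was 0.451 times its 3 h level at 24 h (log2 −1.15, SE 0.0684, adjusted p = 1.451e-09).

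Gart, whose one protein carries 3 activities of the ring pathway including a formyl-folate transfer, stood at 99.1, 116 and 111 CPM in unfed, 118, 119 and 120.3 CPM in fed 3 h and 81.4, 89.3 and 79.4 CPM in fed 24 h libraries. It fell by 23.2% at 24 h (edgeR adjusted p = 0.000213). At 3 h Gart lay just short of the threshold (log2 0.14, edgeR adjusted p = 0.05698) and was called under 5 of 17 alternative settings (adjusted p from 0.0188 to 0.269 over all of them). Atic (chromosome 1, 71557150 to 71579631), the bifunctional enzyme of the final steps, which uses the second formyl-folate, stood at 200.3, 233 and 220.2 CPM in unfed, 264, 248 and 264 CPM in fed 3 h and 149.5, 169.6 and 149 CPM in fed 24 h libraries. No group of Atic values reached another. It rose by 18.7% at 3 h (edgeR adjusted p = 0.002699) and fell by 28.3% at 24 h (log2 −0.48, SE 0.0601, adjusted p = 5.912e-05).

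Paics and Adsl, which act between the formylation steps, moved less. Paics stood at 253 to 254 CPM in unfed, 260.3 to 274 CPM in fed 3 h and 234 to 243 CPM in fed 24 h libraries, and was 0.937 times the unfed level at 24 h (edgeR adjusted p = 0.08498). Adsl was 0.942 times the unfed level at 24 h (adjusted p = 0.1222) and rose by 14.4% at 3 h (adjusted p = 0.0009127). Ppat and Paics lie head to head on chromosome 5 and share 272 exon bases on opposite strands. Counts of Ppat per 100 counts of Paics were 12.2, 13.5 and 13.3 in unfed, 17.2, 15.4 and 15.8 in fed 3 h and 9.74, 10.3 and 10.6 in fed 24 h libraries, without overlap between groups. Both genes had their highest mean at 3 h and their lowest in fed 24 h libraries. The ratio was picked after the values had been seen, and its differences were not tested.

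**Figure D3:**
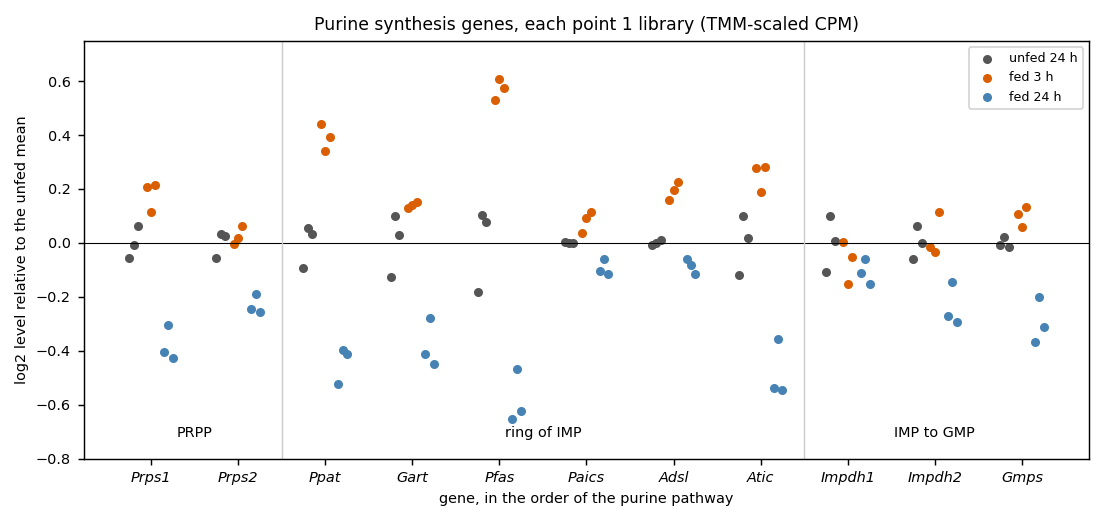
Level of 11 purine synthesis genes in each library, as log2 relative to the mean of the 3 unfed libraries (y axis), in pathway order (x axis); each point is 1 library, grey unfed 24 h, orange fed 3 h, blue fed 24 h. Ppat, Pfas and Atic separate most, Paics and Adsl little, and the 3 groups of Impdh1 overlap.

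Past IMP, the branch to GMP was lower at 24 h for Impdh2 and Gmps and not called for Impdh1. Impdh2, the inosine monophosphate dehydrogenase typical of dividing cells, stood at 151, 164 and 157 CPM in unfed, 155, 153 and 169.9 CPM in fed 3 h and 130.1, 142 and 128 CPM in fed 24 h libraries (fell by 15.0% at 24 h, edgeR adjusted p = 0.003761). Impdh1, its isozyme, stood at 106, 123 and 115 CPM in unfed, 115, 103 and 111 CPM in fed 3 h and 106, 109.8 and 103 CPM in fed 24 h libraries. All 3 groups of Impdh1 overlapped, and its log2 difference at 24 h was −0.11 (SE 0.0549, edgeR adjusted p = 0.1424). Without unfed replicate 1 it was lower (log2 −0.16, edgeR adjusted p = 0.0219). The count ratio of Impdh2 to Impdh1 was 1.42, 1.34 and 1.36 in unfed, 1.35, 1.49 and 1.54 in fed 3 h and 1.23, 1.30 and 1.24 in fed 24 h libraries. The fed 24 h ratios lay below all others (exact permutation p = 0.1 against either group, adjusted 0.214), and unfed and fed 3 h ratios overlapped. Gmps, which makes GMP, fell by 18.3% at 24 h (edgeR adjusted p = 0.0003618).

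Among the pyrimidine enzymes, Cad, Umps and Ctps fell at 24 h and Dhodh did not pass the test. Cad, the trifunctional protein of the first 3 steps, stood at 209.9 to 262 CPM in unfed, 247 to 251.3 CPM in fed 3 h and 169 to 193 CPM in fed 24 h libraries. It fell by 26.1% at 24 h (edgeR adjusted p = 0.0003404) and was not called at 3 h. Umps (chromosome 16, 33954782 to 33967038), which attaches PRPP and releases UMP, stood at 113, 124 and 119.5 CPM in unfed, 138, 131 and 143 CPM in fed 3 h and 91.5, 99.0 and 93.2 CPM in fed 24 h libraries. Ctps (chromosome 4, 120539868 to 120570276), which makes CTP from UTP, stood at 88.8, 100.04 and 94.0 CPM in unfed, 109, 107 and 109 CPM in fed 3 h and 72.1, 77.1 and 76.0 CPM in fed 24 h libraries. For both Umps and Ctps the groups did not overlap. Both rose at 3 h, by 15.3% for Umps (edgeR adjusted p = 0.002474) and 14.9% for Ctps (adjusted p = 0.002341), and each fell by 20.4% at 24 h (adjusted p = 0.0002119 and 0.0001749). Dhodh, the mitochondrial dehydrogenase between Cad and Umps, stood at 19.5 to 20.7 CPM in unfed and 18.7 to 21.2 CPM in fed 24 h libraries (edgeR adjusted p = 0.9789).

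Salvage enzymes were mixed. Hprt, which recovers hypoxanthine and guanine, fell by 11.7% at 24 h (edgeR adjusted p = 0.006194), and Aprt, which recovers adenine, fell by 17.1% (adjusted p = 0.0008306). Aprt rose by 10.5% at 3 h (edgeR adjusted p = 0.02135), a call that ended under scaling by library totals and when the first or the third unfed library, or the third fed 3 h library, was left out. Ada, adenosine deaminase, stood at 14.6 to 17.4 CPM in all 9 libraries and passed no test. Pnp, purine nucleoside phosphorylase, which splits nucleosides and so lies on the breakdown side, was the one gene of the 34 called higher at 24 h than at 3 h, joined by Aldh1l2 under scaling by library totals or upper quartiles. It stood at 43.3, 39.8 and 41.5 CPM in unfed, 32.2, 32.7 and 31.0 CPM in fed 3 h and 40.9, 41.7 and 38.1 CPM in fed 24 h libraries. The fed 3 h libraries were the low ones, and unfed and fed 24 h libraries overlapped. Pnp fell by 23.0% at 3 h (log2 −0.38, SE 0.0519, edgeR adjusted p = 2.107e-05). It was 1.26 times higher at 24 h than at 3 h (adjusted p = 4.264e-05). Adding the near-identical gene Pnp2 (97.2% identity, 801 counts against 16823) left all 3 calls as they were.

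The nucleoside diphosphate kinases, which turn diphosphates into triphosphates, were measured with unequal precision. Nme1 (chromosome 11, 93956979 to 93968521) stood at 66.4, 64.2 and 68.6 CPM in unfed, 71.3, 76.2 and 77.2 CPM in fed 3 h and 57.5, 57.5 and 51.3 CPM in fed 24 h libraries. No group reached another. It rose by 12.8% at 3 h (edgeR adjusted p = 0.01197) and fell by 16.5% at 24 h (adjusted p = 0.001955), the rise losing its call under library totals and without unfed replicate 2. Nme2 stood at 0.733, 1.07 and 0.756 CPM in unfed, 0.776, 0.783 and 0.959 CPM in fed 3 h and 0.638, 0.768 and 0.544 CPM in fed 24 h libraries. With 345 counts in all 9 libraries Nme2 was the least precise gene of the set (SE 0.233 at 24 h), and its differences were not detectable at this count. The annotation leaves 51.1% of the exon bases of Nme2 and 87.5% of those of Nme1 free of the readthrough gene Gm20390, which held 0 counts, so the level of Nme2 in these cells is uncertain. The count ratio of Nme1 to Nme2 ran from 59.5 to 96.0 over the 9 libraries and overlapped between all groups.

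**Figure D4:**
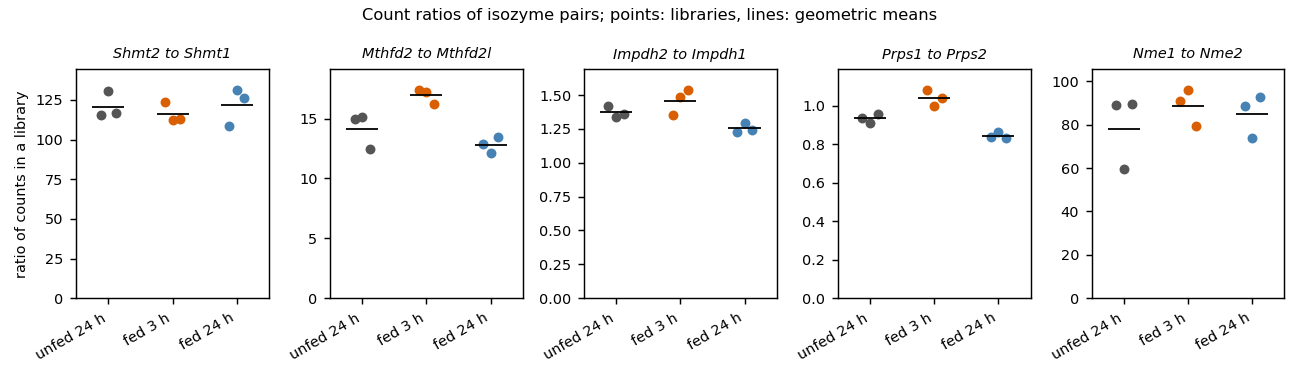
Ratio of the counts of 2 isozymes in each library (y axis, linear from 0, 0.5 added to each count) for 5 pairs; points are libraries and lines are geometric means of 3 libraries. The groups separate fully for Prps1 to Prps2 alone, and overlap throughout for Shmt2 to Shmt1 and for Nme1 to Nme2.

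The mitochondrial form outweighed the cytosolic form of serine hydroxymethyltransferase in every library. The count ratio of Shmt2 to Shmt1 was 115, 130.5 and 117 in unfed, 124, 112 and 113 in fed 3 h and 109, 131 and 126 in fed 24 h libraries, so the groups overlapped although both genes had risen and fallen. The ratio of Mthfd2 to Mthfd2l was 15.0, 15.1 and 12.5 in unfed, 17.4, 17.2 and 16.2 in fed 3 h and 12.8, 12.1 and 13.5 in fed 24 h libraries. Its fed 3 h values lay above those of both other groups (exact permutation p = 0.1, adjusted 0.214), and unfed and fed 24 h values overlapped.

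Levels were set side by side between genes per kilobase of all annotated exons of a gene. That length can exceed a transcript: it is 3077 bases for Impdh2 and 4329 for Psph, whose longest coding transcripts have 1858 and 1733. The order of genes therefore depends on the annotation as well as on the counts. On that scale (CPM per kilobase), Psat1 at 129 ± 6.65 (SD, n = 3) and Shmt2 at 118 ± 13.8 led the set in unfed cells and overlapped each other. They were followed by Aprt at 93.3 ± 3.69, Paics at 80.8 ± 0.103 and Hprt at 59.6 ± 1.80, none of which overlapped its neighbour. In fed 3 h cells Shmt2 was first at 159 ± 5.02 and did not overlap Psat1 at 126 ± 3.67, and in fed 24 h cells they overlapped again at 87.4 ± 5.74 and 88.6 ± 5.18. The lowest levels in unfed cells were those of Mthfd2l at 1.03 ± 0.150, Shmt1 at 0.776 ± 0.0588 and Nme2 at 0.728 ± 0.160. Neighbouring levels in the middle of the order mostly overlapped, such as Impdh2 at 51.1 ± 2.19 and Mthfd1l at 50.2 ± 2.45.

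Other genes of the same routes were taken from lists drawn up by pathway, whose counts are to be read against all tested genes. Of those, 15.9% fell and 14.9% rose at 24 h, 25.1% rose and 25.5% fell at 3 h, and 30.2% were lower and 30.8% higher at 24 h than at 3 h. Of 17 tested genes of folate transport and other folate enzymes, 6 fell and 1 rose at 24 h (35.3% and 5.88%, median log2 −0.13), 5 rose and 2 fell at 3 h (29.4% and 11.8%, median 0.05), and 6 were lower and 2 higher at 24 h than at 3 h (35.3% and 11.8%, median 0.0063, opposite in sign to the balance of calls). The shares that rose at 3 h and that were lower at 24 h than at 3 h lie near those of all tested genes. Slc19a1, the reduced folate carrier, stood at 82.6, 88.4 and 89.8 CPM in unfed, 106, 101.95 and 106 CPM in fed 3 h and 69.9, 71.5 and 68.1 CPM in fed 24 h libraries, without overlap (log2 −0.32 at 24 h, edgeR adjusted p = 0.0001439). Fpgs, which retains folates in the cell by adding glutamates, rose at 3 h (log2 0.15, edgeR adjusted p = 0.02782) and fell at 24 h (log2 −0.35, adjusted p = 0.000335). Ggh, which removes them, fell at 3 h (log2 −0.26, edgeR adjusted p = 0.0005292) and was not called at 24 h (log2 0.12, adjusted p = 0.07644). At 24 h against 3 h Fpgs was lower (log2 −0.50, edgeR adjusted p = 1.092e-06) and Ggh higher (log2 0.38, adjusted p = 7.627e-06).

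Of 11 tested genes of methionine, transsulfuration and polyamine metabolism, 6 fell and 0 rose at 24 h (54.5% fell, against 15.9% of all tested genes, median log2 −0.15). At 3 h 6 rose and 2 fell (54.5% and 18.2%, against 25.1% and 25.5%, median 0.23), and 7 were lower and 2 higher at 24 h than at 3 h (63.6% and 18.2%, against 30.2% and 30.8%, median −0.39). The largest falls belonged to polyamine enzymes. Odc1, ornithine decarboxylase, stood at 116, 125 and 127 CPM in unfed, 168, 167 and 173 CPM in fed 3 h and 87.0, 85.7 and 83.2 CPM in fed 24 h libraries (log2 −0.52 at 24 h, SE 0.0445, edgeR adjusted p = 3.4e-06). Srm, spermidine synthase, was at 101, 119 and 116 CPM in unfed, 161, 143 and 152 CPM in fed 3 h and 79.7, 79.1 and 78.0 CPM in fed 24 h libraries. Amd1, which supplies the aminopropyl group from S-adenosylmethionine, fell at 24 h too (log2 −0.48, edgeR adjusted p = 1.275e-05). Ahcyl1, a relative of Ahcy, fell at 3 h (log2 −0.42, adjusted p = 5.261e-07).

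Of 12 deoxynucleotide genes, 3 fell and 1 rose at 24 h (25% and 8.33%, against 15.9% and 14.9% of all tested genes, median log2 −0.09). At 3 h 4 rose and 3 fell (33.3% and 25%, against 25.1% and 25.5%, median 0.0039), and 7 were lower and 4 higher at 24 h than at 3 h (58.3% and 33.3%, against 30.2% and 30.8%, median −0.20). Rrm1 and Rrm2, the subunits of ribonucleotide reductase, rose at 3 h (log2 0.23 and 0.33, edgeR adjusted p = 0.001465 and 3.02e-05). Samhd1, which breaks deoxynucleotides down, went the other way, at 386, 336 and 333 CPM in unfed, 212, 211 and 211 CPM in fed 3 h and 399, 420.0 and 403 CPM in fed 24 h libraries. It fell at 3 h (log2 −0.73, edgeR adjusted p = 2.786e-08) and rose at 24 h (log2 0.21, adjusted p = 0.006754). The salvage kinases of mitochondria, Dguok and Tk2, were lower at 3 h as well (log2 −0.68 and −0.41, edgeR adjusted p = 6.948e-06 and 0.0008057).

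Of 23 other nucleotide kinases and salvage genes, 5 fell and 1 rose at 24 h (21.7% and 4.35%, against 15.9% and 14.9% of all tested genes, median log2 −0.04). At 3 h 6 rose and 7 fell (26.1% and 30.4%, against 25.1% and 25.5%, median 0.03), and 8 were lower and 8 higher at 24 h than at 3 h (34.8% each, against 30.2% and 30.8%, median −0.01). Uck2, uridine-cytidine kinase, stood at 118, 140.1 and 138 CPM in unfed, 198, 182 and 188 CPM in fed 3 h and 105, 103 and 103 CPM in fed 24 h libraries. Ctps2, the second CTP synthetase, moved against Ctps: it stood at 57.6, 50.1 and 49.9 CPM in unfed, 37.2, 37.9 and 39.0 CPM in fed 3 h and 58.6, 60.9 and 55.9 CPM in fed 24 h libraries (log2 −0.47 at 3 h, edgeR adjusted p = 8.551e-06). Of 15 nucleotide breakdown genes, 2 rose and 2 fell at 24 h (13.3% each, against 14.9% and 15.9% of all tested genes, median log2 −0.0061). At 3 h 4 rose and 5 fell (26.7% and 33.3%, against 25.1% and 25.5%, median −0.07), and 6 were higher and 4 lower at 24 h than at 3 h (40% and 26.7%, against 30.8% and 30.2%, median 0.10). Xdh, xanthine dehydrogenase, which makes urate in purine breakdown, rose at 24 h from 115, 101 and 109 CPM in unfed to 133, 145 and 134 CPM in fed 24 h libraries (log2 0.34, SE 0.0498, edgeR adjusted p = 0.0001808).

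**Figure D5:**
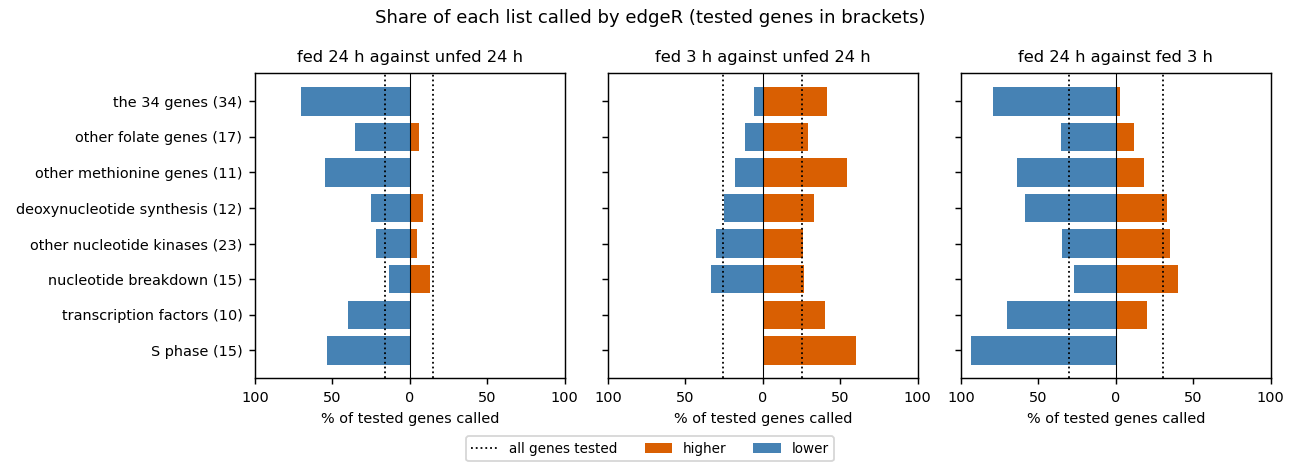
Share of the tested genes of each list that edgeR called higher (orange, to the right) or lower (blue, to the left) in the 3 comparisons (x axis, percent of tested genes); dotted lines mark the shares over all tested genes. For the 34 genes 70.6% were lower at 24 h against unfed, with a dotted line at 15.9%, while nucleotide breakdown genes lie near the dotted lines.

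Of 10 tested transcription factors known to act on genes of these routes, 4 fell and 0 rose at 24 h (40% fell, against 15.9% of all tested genes, median log2 −0.10). At 3 h 4 rose and 0 fell (40% rose, against 25.1%, median 0.02), and 7 were lower and 2 higher at 24 h than at 3 h (70% and 20%, against 30.2% and 30.8%, median −0.18). Myc stood at 25.5, 39.7 and 39.2 CPM in unfed, 69.9, 66.1 and 61.2 CPM in fed 3 h and 40.0, 36.3 and 43.9 CPM in fed 24 h libraries. Unfed replicate 1 was the low library, and unfed and fed 24 h libraries overlapped. Myc rose at 3 h (log2 0.92, SE 0.120, edgeR adjusted p = 1.317e-05) and was not called at 24 h. Atf4 stood at 280.2, 320.5 and 319 CPM in unfed, 396, 384 and 378 CPM in fed 3 h and 345, 319 and 343 CPM in fed 24 h libraries. It rose at 3 h (log2 0.33, edgeR adjusted p = 9.237e-05) and was not called at 24 h. E2f3 rose at 3 h (log2 0.25, adjusted p = 0.0005292) and fell at 24 h (log2 −0.26, adjusted p = 0.001271). Mycn was at 0.

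Of 15 S phase genes, 8 fell and 0 rose at 24 h (53.3% fell, against 15.9% of all tested genes, median log2 −0.20). At 3 h 9 rose and 0 fell (60% rose, against 25.1%, median 0.18), and 14 were lower and 0 higher at 24 h than at 3 h (93.3% lower, against 30.2%, median −0.31). Their summed level was 2295 to 2498 CPM in unfed, 2598 to 2665 CPM in fed 3 h and 2030 to 2189 CPM in fed 24 h libraries, without overlap and in the same order as the sum of the 34 genes. The part of the cell cycle in the results for the 34 genes was not tested.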

How the data were processed

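RNA was sequenced from 9 ST2 libraries (3 groups of 3). The values are raw counts per gene, deposited by the authors as 1 table. The submitters' processing notes name STAR 2.7.0f, Subread 1.6.4 with featureCounts, MultiQC 1.7 and the builds GRCm38.p6 and GRCh38.p13, without saying which step used which. The labels and the series text name 2 different library kits, so whether strand was kept is not given in the sources used here. Table columns of unlisted samples numbered 0.

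The counts were fitted in R 4.3.3 with edgeR 4.0.16 (limma 3.58.1): filterByExpr, TMM factors, quasi-likelihood F-tests on group over all 9 libraries, Benjamini-Hochberg adjustment over 13568 genes, called at an adjusted p under 0.05. The standard error is the absolute log2 difference over the square root of F. CPM uses TMM-scaled totals. DESeq2 1.42.0, other scalings, filters, a replicate block, fits on only the 6 libraries compared, and leaving out each library were alternatives. The steps were tested on simulated data. Replicate pairs differed by 5.46 to 16.1 times their sampling noise (chi-square over degrees of freedom), so none was counted as a duplicate. Ratios of isozymes were compared by exact permutation tests. Exon lengths, positions and overlaps are from GENCODE M21 (GRCm38).

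The 34 genes, the pathway lists, the markers and the tests were chosen with earlier results of these data known. Of the 34, values per library are given for genes called in some comparison with an absolute log2 difference of 0.5 or more and for both members of 5 isozyme pairs. From other pathway lists, genes named are among the 3 largest called per direction with at least 5 CPM, and those with values per library were picked after their values were seen. Pnp, Aldh1l2 and the ratio of Ppat to Paics were picked in the same way.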

Additional observations from a re-analysis of the deposited data

Results flagged for a closer look

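For 13 genes the calls in the fed 3 h and fed 24 h cells were opposite, higher at 3 h and lower at 24 h than the same unfed libraries, and edgeR's test of fed 24 h against fed 3 h passed as well. The log2 difference of 24 h from 3 h was −1.15 for Pfas, −0.93 for Shmt1, −0.86 for Shmt2, −0.83 for Ppat and −0.76 for Mat2a. It was −0.73 for Atic, −0.71 for Mthfd2, −0.56 for Prps1, −0.54 for Umps and −0.53 for Ctps. The smallest were −0.48 for Mthfd1l, −0.43 for Nme1 and −0.42 for Aprt. All 3 libraries of fed 24 h lay below all 3 of fed 3 h for each of the 13, and the unfed libraries lay between them. The 13 were picked by their calls in these same libraries, so this separation largely follows from the choice and is no added support. Of all tested genes, 6.54% showed the same 3 calls, and 32.6% lay lower without overlap at 24 h than at 3 h. Because both fed groups are read against the same unfed libraries, their 2 differences are not independent, and no unfed 3 h group was analysed here.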

How the results depend on the processing

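Under 17 planned settings most calls of the 34 genes stood. At 24 h, 22 to 27 fell and 0 rose in each setting, and 22 of the 24 falls were called in every setting. At 3 h, 14 of 16 calls were kept in every setting, and between the fed groups 26 of 28. Genes without a call gained one in some setting in 3, 9 and 3 cases (24 h, 3 h, between fed groups). No called difference changed sign. Higher genes at 24 h against 3 h became 2 (Pnp and Aldh1l2) with library totals and 2 with upper quartile factors. Without fed 24 h replicate 1, 1426 of all tested genes fell at 24 h, against 2159. Library totals moved the median of all genes to −0.05 at 3 h and 0.05 between fed groups. Differences that reversed were all uncalled, and the cause was not tested. With library totals, the log2 difference at 3 h was −0.019 for Prps2 and −0.023 for Impdh2, and that of Impdh1 between fed groups 0.0093. Leaving out 1 library gave −0.19 to 0.015 for Mthfd2l at 24 h, and at 3 h −0.070 to 0.0013 for Psat1, −0.0036 to 0.044 for Prps2, −0.026 to 0.052 for Impdh2 and −0.13 to 0.17 for Nme2. Over all settings Cad ran from −0.039 to 0.118 and Ada from −0.030 to 0.048 at 3 h, and Dhodh from −0.033 to 0.054 at 24 h. The log2 count ratio of Shmt2 to Shmt1 ran from −0.039 to 0.095 at 24 h and −0.099 to 0.0043 at 3 h. That of Nme1 to Nme2 ran from −0.076 to 0.22 at 24 h, −0.014 to 0.28 at 3 h and −0.14 to 0.035 between fed groups. Deviations of same-numbered libraries correlated at −0.163 to 0.0578, with 0 of 9 pairs over 0.1, so the numbers were not taken as pairs. With the replicate block 24 genes fell and 0 rose at 24 h, 15 rose and 2 fell at 3 h, and 27 fell and 1 rose between fed groups. After seeing the data, near-identical copies were added together, which made Ahcy lower at 3 h. Low counts limit Nme2 most, with 345 in all, and the parts of depth and of read assignment in that count were not tested.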
